A study of Homo sapiens with 6 samples.

Results

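The genes described are CXCL1, CXCL2, CXCL3, CXCL5, CXCL6 and CXCL8, which are 6 of the ELR-positive CXC chemokines that attract neutrophils. They were chosen by gene symbol and not by a rule on their values, though earlier results of these data were known. They make up 6 of the 20442 genes in the deposited expression table. RNA sequencing was performed on 6 libraries of HK-2, an immortalized cell line from the proximal tubule of a human kidney. In 3 libraries the cells carried a lentivirus delivering HNRNPF, the gene of the RNA-binding protein hnRNP F (labelled OE), and in 3 they carried a control lentivirus (labelled NC). The protocol describes 72 h in medium with 30 mM glucose or with 30 mM mannitol, an osmotic control, and no label says which medium a library had. The study calls the libraries of a group biological replicates and the protocol speaks of parallel wells, so a p-value here reflects only how far these libraries scatter, and that scatter may be technical.

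Chemokines are small secreted proteins that guide leukocytes along a gradient. The CXC family carries a pair of cysteines separated by a single residue, and in the ELR-positive branch the residues glutamate, leucine and arginine stand just before the first cysteine. These residues allow binding to CXCR1 and CXCR2, the chemokine receptors of neutrophils. In epithelium the genes are known as rapid targets of NF-kB downstream of interleukin-1, TNF and Toll-like receptors, and their mRNAs are short-lived because AU-rich elements after the stop codon recruit decay proteins such as ZFP36. In the kidney, injured tubule cells are a recognised source of CXCL8, also called interleukin-8.

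All 6 genes lay on chromosome 4 (GRCh38.p14) within 359 kb, between 73740569 and 74099195. CXCL8 (gene ID 3576, 73740569 to 73743716), CXCL6 (gene ID 6372, 73836678 to 73838760) and CXCL1 (gene ID 2919, 73869393 to 73871308) were on the plus strand. CXCL5 (gene ID 6374, 73995642 to 73998677), CXCL3 (gene ID 2921, 74036589 to 74038689) and CXCL2 (gene ID 2920, 74097040 to 74099195) were on the minus strand. The coding sequence around the defining motif is shown because it gives the group its name and shows which genes are close copies of each other. Each 30-base stretch lies in exon 2 of 4 of the transcript used (GENCODE 44, GRCh38), and the capitals mark the glutamate, leucine and arginine codons, which are followed directly by the codon of the first cysteine.
CXCL1: gccactGAACTGCGCtgccagtgcttgcag
CXCL2: gccactGAACTGCGCtgccagtgcttgcag
CXCL3: gtcactGAACTGCGCtgccagtgcttgcag
CXCL5: ttgagaGAGCTGCGTtgcgtttgtttacag
CXCL6: ctgacaGAGCTGCGTtgcacttgtttacgc
CXCL8: gctaaaGAACTTAGAtgtcagtgcataaag
The stretches of CXCL1 and CXCL2 were identical. CXCL1, CXCL2 and CXCL3 shared 1 set of motif codons, CXCL5 and CXCL6 shared another, and CXCL8 had its own. Over the whole coding sequence, identity was 93.5% between CXCL1 and CXCL2, 94.4% between CXCL2 and CXCL3, 90.7% between CXCL1 and CXCL3, and 87.5% between CXCL5 and CXCL6. All other pairs had between 48.6% and 61.5% identity. The encoded precursors had 107 residues for CXCL1, CXCL2 and CXCL3, 114 for CXCL5 and CXCL6, and 99 for CXCL8.

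The close copies bear on how reads could be placed, since the authors kept uniquely mapped reads and allowed 4 mismatches. Of all 150-base stretches of the CXCL2 transcript, 65 of 966 (6.7%) came within 4 mismatches of another of the 6 transcripts. The share was 34 of 1025 (3.3%) for CXCL1 and 31 of 926 (3.3%) for CXCL3. No such stretch was found in CXCL5, CXCL6 or CXCL8, whose closest stretches differed by 12, 12 and 68 bases. Whether reads of CXCL1, CXCL2 and CXCL3 were exchanged or lost was not tested.

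The promoters are shown because the 6 genes share an NF-kB motif at nearly the same distance from their start. The promoter windows, from RefSeq (GRCh38.p14), cover the bases just before and after each start and were found for all 6 genes. The capitals mark the match to a 10-base pattern (GGG, any 2 bases, TTTCC) or, for CXCL8, to GGAATTTCC, and the sequences read in the direction of the gene.
CXCL1: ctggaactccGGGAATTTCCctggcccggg
CXCL2: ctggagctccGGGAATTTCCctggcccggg
CXCL3: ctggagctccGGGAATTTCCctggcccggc
CXCL5: catgagttcaGGGAATTTCCccagcatccc
CXCL6: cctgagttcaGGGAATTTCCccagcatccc
CXCL8: tgcaaatcgtGGAATTTCCtctgacataa
The motifs were searched on both strands, and the 2 NF-kB patterns overlap each other. GGAATTTCC was present in all 6 promoters and in 129 of 27305 promoters in the table (0.47%). The 10-base pattern was present in 5 of the 6, the exception being CXCL8, and in 1.92% of all promoters. The first base of the match lay between 78 and 91 bases before the start. The AP-1 pattern TGANTCA was found in the CXCL8 promoter alone among the 6 (7.76% of all promoters), as was the TATA pattern TATAAA (11.95% of all promoters). A match is a description of these letters, and binding was not measured.

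Copies of ATTTA, the core of AU-rich elements, were counted between the stop codon and the transcript end. CXCL5 held 11, CXCL2 held 10, CXCL8 held 9, CXCL3 held 7, and CXCL1 and CXCL6 held 6 each, against a median of 2 over 19526 genes. Per kilobase the counts ran from 5.36 in CXCL6 to 13.97 in CXCL2, against a median of 1.50. The longer pattern TTATTTATT, the form preferred by ZFP36, occurred 5 times in CXCL2, 3 times in CXCL1 and once each in CXCL3 and CXCL8. It was not found in CXCL5 or CXCL6, and 8.4% of all genes held it.

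Before the chemokines, the human row of HNRNPF was examined, and it ran against the labels. Values are FPKM, the fragments assigned to a gene relative to its transcript length and to the total mapped in that library. HNRNPF (gene ID 3185, chromosome 10, 43385618 to 43409186) had 322.83, 349.84 and 320.80 FPKM in the libraries labelled OE, against 555.18, 563.36 and 588.68 FPKM in the libraries labelled NC. Every library labelled OE was below every library labelled NC. The log2 fold change was -0.78 (SE 0.061, limma, Benjamini-Hochberg adjusted p = 1.07e-04), or 1.72-fold lower. The methods of the study give the inserted gene by the same identifier for HK-2 cells and for its mouse cells, an identifier other than that of this human row, so whether the insert is counted in the row was not tested. All directions given here follow the labels.

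Genes with a mean of at least 1 FPKM over the 6 libraries were tested with limma on log2(FPKM + 0.1), a scale that understates the change of low genes, and passed at a Benjamini-Hochberg adjusted p under 0.05. Of 12461 genes tested, 3039 passed, and the median log2 fold change was -0.01, with the 5th to 95th percentile from -0.48 to 0.46. Between 12396 and 12462 genes reached 1 FPKM in each library. Pearson's r across genes was 0.989 to 0.994 between libraries of a group and 0.978 to 0.985 between groups. Neutrophil markers were near 0, with 8 of 8 under 1 FPKM in every library, 6 of 8 listed at 0 throughout (MPO and CSF3R among them), and sums of 0.16 to 0.31 FPKM in the libraries labelled OE, against 0.29 to 0.43 FPKM in those labelled NC. Of 8 markers of other leukocytes, 5 stayed under 1 FPKM, PTPRC reaching at most 0.04 FPKM, and the summed level of 198.23 to 221.74 FPKM in libraries labelled OE, against 168.60 to 185.21 FPKM in those labelled NC, was mostly CD68, a lysosomal protein. All 6 endothelial markers were under 1 FPKM, as were 5 of 8 fibroblast markers, whose sums were 9.20 to 10.42 FPKM in libraries labelled OE, against 6.27 to 7.91 FPKM in those labelled NC. The leukocyte marker CSF1R and the fibroblast marker COL1A1, named here after their values were seen, were higher by 0.84 and 0.64 on the log2 scale (limma adjusted p = 0.00793 and 0.0116), COL1A1 without passing when the filter was removed (limma adjusted p = 0.086), and their part in the results below was not tested. Of 12 proximal tubule markers, 6 were tested, among them PAX8, whereas LRP2 and SLC22A6 were listed at 0 and AQP1, CUBN, SLC34A1 and ANPEP stayed under 1 FPKM in every library. In that list GGT1 rose by 0.47 and CDH16 fell by 0.39 on the log2 scale (limma adjusted p = 0.00576 and 0.00985, and 0.0681 and 0.0556 without the filter). Of 6 simple epithelium markers, 5 were tested, with sums of 980.41 to 998.72 FPKM in libraries labelled OE, against 1007.57 to 1073.95 FPKM in those labelled NC. KRT18 fell by 0.20 (limma adjusted p = 0.0233, lost without any library but NC library 3, at 0.055 to 0.0912). KRT7 fell by 0.36 (limma adjusted p = 0.0117, and 0.0526 without NC library 2). KRT19 went the other way without passing (0.18, limma adjusted p = 0.0636), each library labelled OE being above all labelled NC. KRT8 and EPCAM did not pass, and CDH1 reached at most 0.07 FPKM. The part of these markers in the results below was not tested.

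Of the 6 chemokine genes, 4 were tested. CXCL5 rose in the libraries labelled OE. CXCL3 was higher in each of these libraries than in any labelled NC without passing the test, CXCL2 differed little, and CXCL8, by far the most abundant, was lower on average with overlapping libraries. CXCL1 and CXCL6 were at or near 0 in every library. Thus 1 of 4 tested genes passed, where 24.4% of all tested genes passed (11.3% higher and 13.1% lower in libraries labelled OE), so the count is near the background and is no result about the group.

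**Figure D1:**
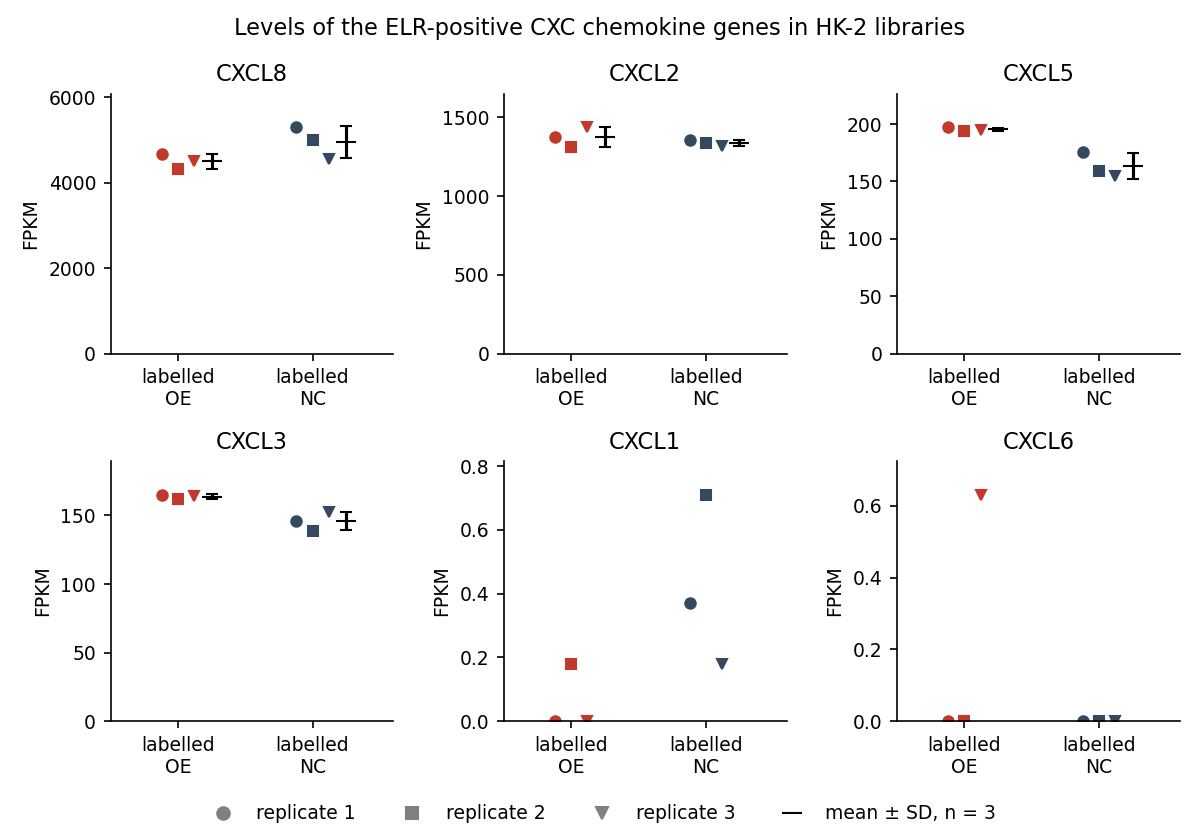
FPKM of each chemokine gene (vertical axes, each with its own scale starting at 0) in the 3 libraries labelled OE (red) and the 3 labelled NC (dark blue). Symbols are libraries, and bars are mean ± SD (n = 3) for the 4 tested genes. The libraries labelled OE lie above those labelled NC for CXCL5 and CXCL3 and overlap them for CXCL8 and CXCL2, and CXCL1 and CXCL6 stay under 1 FPKM.

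CXCL8, a ligand of both CXCR1 and CXCR2, had 4668.21, 4316.85 and 4511.87 FPKM in libraries labelled OE 1 to 3, against 5295.62, 4993.34 and 4564.86 FPKM in libraries labelled NC 1 to 3. The groups overlapped, since OE library 1 was above NC library 3. The means were 4499 ± 176 FPKM in libraries labelled OE and 4951 ± 367 FPKM in libraries labelled NC (SD, n = 3 each). The log2 fold change was -0.14 (SE 0.081, 95% interval -0.32 to 0.05, limma adjusted p = 0.242), which did not pass. The interval therefore ran from a 0.80-fold to a 1.03-fold level. CXCL8 was the 9th or 10th highest of all genes in each library.

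CXCL2, an early ligand of CXCR2, was the second most abundant of the group. It had 1374.59, 1312.51 and 1436.59 FPKM in libraries labelled OE, against 1357.84, 1336.96 and 1321.53 FPKM in libraries labelled NC. The NC libraries all lay inside the range of the OE libraries. The means were 1375 ± 62.0 FPKM in libraries labelled OE and 1339 ± 18.2 FPKM in libraries labelled NC (SD, n = 3 each), and the log2 fold change of 0.04 (SE 0.063, 95% interval -0.10 to 0.18, limma adjusted p = 0.694) did not pass. By rank, CXCL2 stood between 72nd and 80th in libraries labelled OE and between 79th and 91st in those labelled NC.

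CXCL5, an epithelial chemokine first described in epithelial cells stimulated with interleukin-1 or TNF, had 197.07, 193.95 and 195.27 FPKM in libraries labelled OE, against 175.95, 159.26 and 154.66 FPKM in libraries labelled NC. The OE libraries were close together and all above the NC libraries. The means were 195 ± 1.57 FPKM in libraries labelled OE and 163 ± 11.2 FPKM in libraries labelled NC (SD, n = 3 each). CXCL5 rose 1.20-fold (95% interval 1.09 to 1.32) with a log2 fold change of 0.26 (SE 0.064, limma adjusted p = 0.0172). The rise no longer passed without OE library 3 (log2 fold change 0.26, adjusted p = 0.062) or without NC library 2 (0.24, adjusted p = 0.0859), both by limma, and it also did not pass without the filter on low genes (limma adjusted p = 0.065).

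CXCL3, the close copy of CXCL2, had 164.94, 161.93 and 164.45 FPKM in libraries labelled OE, against 146.11, 138.94 and 152.74 FPKM in libraries labelled NC. All OE libraries were above all NC libraries. The means were 164 ± 1.62 FPKM in libraries labelled OE and 146 ± 6.90 FPKM in libraries labelled NC (SD, n = 3 each). The log2 fold change of 0.17 (SE 0.058, 95% interval 0.04 to 0.30, limma adjusted p = 0.0622) did not pass, whereas it passed without NC library 3 (0.20, limma adjusted p = 0.0209). CXCL3 and CXCL5 were thus the 2 of 4 tested genes whose groups did not overlap, a property that 42.1% of all tested genes had (19.6% higher and 22.5% lower in libraries labelled OE).

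**Figure D2:**
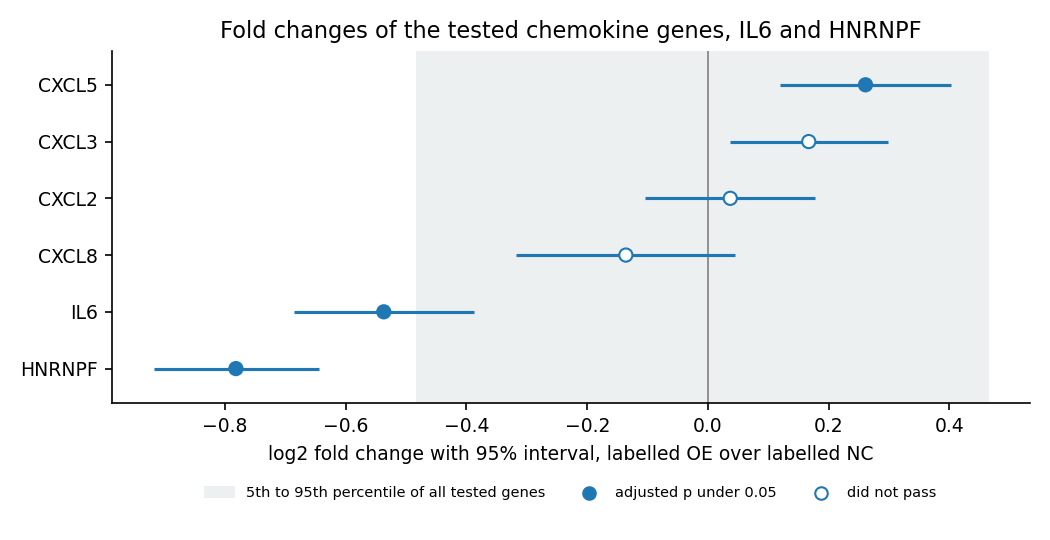
Log2 fold change, labelled OE over labelled NC (horizontal axis), with its 95% interval for the 4 tested chemokine genes, IL6 and HNRNPF. Filled points passed an adjusted p of 0.05, and the grey band is the 5th to 95th percentile of all 12461 tested genes (-0.48 to 0.46). All 4 chemokine genes lie inside the band, and IL6 (-0.54) and HNRNPF (-0.78) lie below it.

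CXCL1, which encodes the chemokine known as GRO-alpha, was listed at 0, 0.18 and 0 FPKM in libraries labelled OE, against 0.37, 0.71 and 0.18 FPKM in libraries labelled NC. CXCL6, also called granulocyte chemotactic protein, was listed at 0, 0 and 0.63 FPKM in libraries labelled OE and at 0 in every library labelled NC. Both were below the filter, the groups overlapped for both, and no fold change is given. When the filter was removed, neither passed (limma adjusted p = 0.181 for CXCL1 and 0.604 for CXCL6). An exact 0 in an FPKM table may be a failed estimate. Of 76 ribosomal protein genes, which every cell uses, none was at 0 in all libraries, but RPS10 never exceeded 0.60 FPKM, so the listing of CXCL1 and CXCL6 does not show that the genes were silent. The CXCL1 transcript thus stood under 1 FPKM beside CXCL2 at 1312.51 FPKM or more, although both promoters held the same 10-base NF-kB match and the coding sequences were 93.5% identical.

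The order of the levels per length was CXCL8, CXCL2, CXCL5 and CXCL3 in every library. CXCL8 was 3.14 to 3.90 times CXCL2, and CXCL2 was 6.77 to 8.54 times CXCL5. CXCL5 was only 1.01 to 1.20 times CXCL3, and in NC library 3 these neighbours stood at 154.66 and 152.74 FPKM, closer than the spread of either among the NC libraries. Together the 6 genes summed to 6404.8, 5985.4 and 6308.8 FPKM in libraries labelled OE, against 6975.9, 6629.2 and 6194.0 FPKM in libraries labelled NC, with overlap. The sum was 0.707% to 0.711% of all FPKM in libraries labelled OE and 0.707% to 0.760% in libraries labelled NC. CXCL8 supplied 71.5% to 72.9% of it in libraries labelled OE, below the 73.7% to 75.9% in libraries labelled NC. The CXCL8 level itself overlapped between the groups and did not pass. The share follows from the ratios to CXCL8 given below, so it is no separate result.

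The ratio of each gene to CXCL8 within a library removes the scaling of that library, and asks whether the genes differed in how far they moved. CXCL5 was at 4.22%, 4.49% and 4.33% of the CXCL8 level in libraries labelled OE, against 3.32%, 3.19% and 3.39% in libraries labelled NC. CXCL3 was at 3.53%, 3.75% and 3.64% in libraries labelled OE, against 2.76%, 2.78% and 3.35% in libraries labelled NC. CXCL2 was at 29.45%, 30.40% and 31.84% in libraries labelled OE, against 25.64%, 26.77% and 28.95% in libraries labelled NC. For each of these 3 genes, every library labelled OE had a higher ratio than every library labelled NC. The divisor CXCL8 was itself lower on average in libraries labelled OE (log2 fold change -0.14), which raises the ratio of any gene that did not move. The share of all tested genes with such a ratio was not counted, so this is no result about the group. The mean log2 ratio of CXCL5 to CXCL8 was -4.52 ± 0.045 in libraries labelled OE and -4.92 ± 0.044 in libraries labelled NC (SD, n = 3 each), a difference of 0.40 or 1.32-fold. The differences were 0.30 (1.23-fold) for CXCL3 and 0.17 (1.13-fold) for CXCL2. The two-sided exact permutation test gave p = 0.10 for each of the 3 ratios, and 0.10 after adjustment over the 3, which is the smallest p that 3 against 3 libraries allow. No ratio can therefore pass 0.05 in this design, and the 3 ratios share CXCL8, so they are not independent of each other. No ratio was computed for CXCL1 or CXCL6 because of values at 0.

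**Figure D3:**
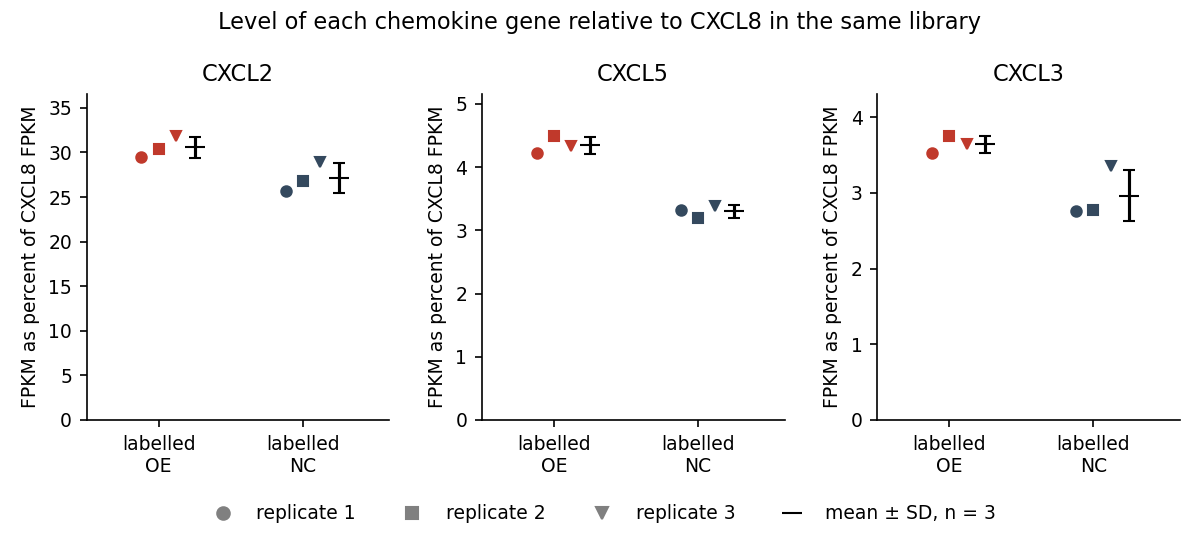
Level of CXCL2, CXCL5 and CXCL3 as percent of the CXCL8 level in the same library (vertical axes starting at 0), in the 3 libraries labelled OE (red) and the 3 labelled NC (dark blue), with mean ± SD (n = 3). All libraries labelled OE lie above all libraries labelled NC in each panel, for CXCL5 at 4.22% to 4.49% against 3.19% to 3.39%. The divisor CXCL8 was lower on average in libraries labelled OE, and the share of all genes with such a ratio was not counted.

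The study set CXCL8 beside IL6, the gene of the cytokine interleukin-6. IL6 had 782.98, 715.31 and 706.91 FPKM in libraries labelled OE, against 1090.50, 1089.98 and 1017.56 FPKM in libraries labelled NC. All OE libraries were below all NC libraries, and IL6 was 1.45-fold lower (log2 fold change -0.54, SE 0.067, limma adjusted p = 9.89e-04). With the median shift of its neighbouring genes on the chromosome removed from each library, IL6 was at -0.33 (limma adjusted p = 0.0129) and CXCL8 at -0.23 (limma adjusted p = 0.0747), and the difference between the genes was not tested.

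The genes with the profiles nearest to CXCL8 were found by Euclidean distance between centred log2 values over the 6 libraries, among 8319 tested genes of at least 10 FPKM. The nearest were RPL12 (0.047), TMEM59 (0.051) and CAPZA1 (0.051), on a scale where the CXCL8 profile itself had a length of 0.24. Among the genes nearest to the mean profile of the 4 tested chemokine genes, which had a length of 0.132, were CTCF (0.036) and TRA2B (0.043). Both profiles are nearly flat over the 6 libraries.

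The surrounding part of chromosome 4 was described because the 6 genes are neighbours. The table held 82 other genes that start within 5 Mb of the CXCL8 start, and 34 of them were tested. Of these, 4 rose and 2 fell (17.6%, against 24.4% of all tested genes), and 27 of 34 had a positive log2 fold change, with a median of 0.11 against -0.01 for all tested genes. ANXA3, an annexin gene, fell (36.73, 35.05 and 33.07 FPKM in libraries labelled OE, against 57.79, 52.27 and 45.91 FPKM in libraries labelled NC, log2 fold change -0.57, limma adjusted p = 0.003). G3BP2, of a stress granule protein, rose (111.72, 110.43 and 109.41 FPKM in libraries labelled OE, against 93.19, 93.55 and 85.11 FPKM in libraries labelled NC, log2 fold change 0.29, limma adjusted p = 0.0101). THAP6 fell by 0.36 on the log2 scale (limma adjusted p = 0.036) and RUFY3 rose by 0.30 (limma adjusted p = 0.0388), and each lost its call when any library but NC library 3 was left out (limma adjusted p between 0.0609 and 0.125). GRSF1 and CCNI, named after their values were seen, also rose, by 0.25 and 0.18 on the log2 scale (limma adjusted p = 0.0267 and 0.0419). GRSF1 lost its call without any OE library or NC library 2 (limma adjusted p 0.0559 to 0.103), and CCNI without any library but NC library 3 (limma adjusted p 0.0586 to 0.144). Without the filter RUFY3 (limma adjusted p = 0.0859), GRSF1 (0.083) and THAP6 (0.118) did not pass. The tested genes nearest to the cluster, RASSF6 (log2 fold change 0.07, limma adjusted p = 0.833) and MTHFD2L (0.15, limma adjusted p = 0.48), did not pass.

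The median shift of neighbouring genes was also removed from each library. For this step the neighbours of a tested gene included the other tested chemokine genes (37 genes in all for CXCL8). CXCL5 then kept its call (log2 fold change 0.18, limma adjusted p = 0.0336). CXCL8 was then at -0.23 (limma adjusted p = 0.0747), CXCL3 at 0.09 (limma adjusted p = 0.374) and CXCL2 at -0.05 (limma adjusted p = 0.605), the last with its sign turned.

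**Figure D4:**
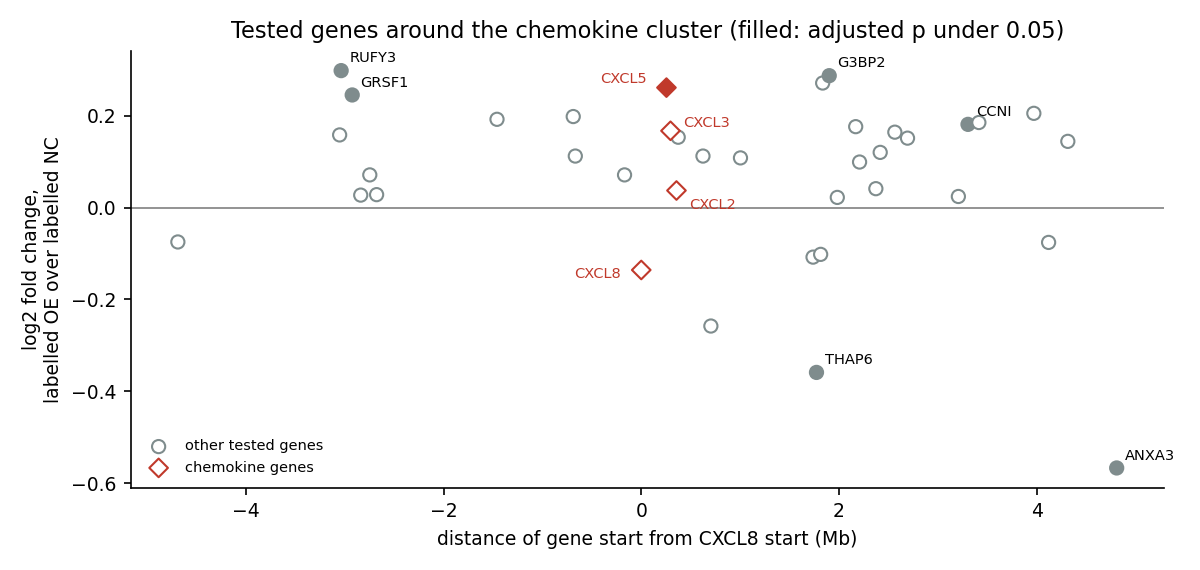
Log2 fold change, labelled OE over labelled NC (vertical axis), of the 34 tested genes whose start lies within 5 Mb of the CXCL8 start (grey circles) and of the 4 tested chemokine genes (red diamonds), against distance from the CXCL8 start in Mb. Filled symbols passed an adjusted p of 0.05. The neighbours have a median of 0.11, and the chemokine genes run from -0.14 (CXCL8) to 0.26 (CXCL5).

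Other genes of the pathway were read from lists by role, and their calls are counts beside the 24.4% of all tested genes that passed. Of 11 other CXC chemokines, 10 stayed under 1 FPKM in every library, among them CXCL9, CXCL10, CXCL11 and CXCL12. PPBP, PF4 and PF4V1, which lie inside the same cluster, were also among the 10. The 11 were not searched for the ELR motif. CXCL16, a membrane-bound chemokine on chromosome 17, had 8.78, 10.29 and 7.09 FPKM in libraries labelled OE, against 5.65, 6.21 and 6.76 FPKM in libraries labelled NC, and rose (log2 fold change 0.47, limma adjusted p = 0.0367). The call did not pass without the filter (limma adjusted p = 0.17) or with the shift of neighbouring genes removed (0.29, limma adjusted p = 0.165), and it was lost without OE library 1, OE library 2, NC library 1 or NC library 2 (limma adjusted p between 0.0819 and 0.121). CXCR1 and CXCR2, the chemokine receptors of neutrophils, were listed at 0 in every library. Of the 8 receptors listed, CXCR5 and ACKR3 were tested and neither passed.

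Among 20 inducing cytokines, receptors and adaptors, 18 were tested, 2 rose and 3 fell, with a median log2 fold change of -0.04. MYD88, the adaptor of Toll-like and interleukin-1 receptors, had 8.17, 8.09 and 7.94 FPKM in libraries labelled OE, against 12.55, 11.07 and 11.43 FPKM in libraries labelled NC, and fell (log2 fold change -0.53, limma adjusted p = 0.00381). IL1R1, the signalling receptor of interleukin-1, fell by 0.51 on the log2 scale (limma adjusted p = 0.00909), and IL17RC, a subunit of the interleukin-17 receptor, fell by 0.40 (limma adjusted p = 0.0116, and 0.0515 without NC library 2). TLR2, a receptor for bacterial lipoproteins, had 11.00, 10.93 and 11.28 FPKM in libraries labelled OE, against 8.98, 8.27 and 7.15 FPKM in libraries labelled NC, and rose (log2 fold change 0.45, limma adjusted p = 0.0132). The TNF receptor gene TNFRSF1A, named after its values were seen, rose by 0.22 (limma adjusted p = 0.0285), a call lost without OE library 2 or 3 or NC library 1 or 2 (limma adjusted p 0.0751 to 0.118). Several of these calls did not pass without the filter, namely TLR2 (limma adjusted p = 0.065), IL17RC (0.0582) and TNFRSF1A (0.066). With the shift of neighbouring genes removed, MYD88 was at -0.23 (limma adjusted p = 0.0777), IL17RC at -0.13 (0.346), TLR2 at 0.28 (0.0518) and TNFRSF1A at 0.14 (0.108), so that IL1R1 was the gene of this list that kept its call under both. TNF, IL1B and IL1A were low, with means between 0.977 and 3.53 FPKM, and did not pass.

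All 24 listed NF-kB, AP-1 and C/EBP factors were tested, of which 2 rose and 2 fell, with a median of 0.07. RELA, the NF-kB subunit p65, had 65.13, 79.49 and 69.82 FPKM in libraries labelled OE, against 53.57, 54.17 and 65.84 FPKM in libraries labelled NC. Its groups overlapped, and its rise of 0.31 on the log2 scale (limma adjusted p = 0.0478) was lost without OE library 2 or 3 or NC library 1 or 2 (limma adjusted p 0.099 to 0.164). IKBKG, of the kinase complex that frees NF-kB, rose by 0.63 (limma adjusted p = 0.0254, and 0.0554 and 0.0866 without NC library 1 and 2). Without OE library 2, at 36.09 FPKM beside 20.65 and 23.93 FPKM in the other libraries labelled OE, its rise was 0.40 (limma adjusted p = 0.0316), and its value is uncertain because a near-identical pseudogene copy is known. TNFAIP3, the NF-kB inhibitor A20, had 21.38, 23.12 and 22.60 FPKM in libraries labelled OE, against 27.41, 26.54 and 30.05 FPKM in libraries labelled NC, and fell (log2 fold change -0.32, limma adjusted p = 0.0146, and 0.0514 without OE library 1). The stress factor ATF3 fell by 0.24 (limma adjusted p = 0.0184), a call lost without OE library 2 or 3 or NC library 2 (limma adjusted p 0.051 to 0.103). Without the filter IKBKG (limma adjusted p = 0.189), TNFAIP3 (0.0537) and RELA (0.214) did not pass, and with the shift of neighbouring genes removed RELA was at 0.17 (limma adjusted p = 0.21) and ATF3 at -0.19 (0.0719). The count of rises in this list ran from 0 to 7 as single libraries were left out.

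Of 14 listed regulators of chemokine mRNA stability, all were tested, 1 rose and 1 fell, with a median of 0.14. ZFP36, the decay protein that binds AU-rich elements, had 38.01, 53.03 and 44.09 FPKM in libraries labelled OE, against 35.53, 36.27 and 43.48 FPKM in libraries labelled NC, with a log2 fold change of 0.22 (95% interval -0.05 to 0.49) that did not pass (limma adjusted p = 0.204). Its log2 fold change was 0.10 without OE library 2 and 0.34 without OE library 1. ELAVL1, the stabilizing protein HuR, rose by 0.20 on the log2 scale (limma adjusted p = 0.045) and lost its call without any library but NC library 3 (limma adjusted p 0.0773 to 0.17). TIA1, a translational repressor, fell by 0.33 (limma adjusted p = 0.0374) and lost its call without OE library 1 or 3 or NC library 1 or 2 (limma adjusted p 0.0692 to 0.133). Neither passed without the filter (limma adjusted p = 0.0837 for ELAVL1 and 0.163 for TIA1) or with the shift of neighbouring genes removed (limma adjusted p = 0.135 and 0.0885).

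Among 11 genes for processing and binding of chemokines, 9 were tested, 5 fell and none rose, with a median of -0.36 beside -0.01 for all tested genes. MMP1, a collagenase, had 4.22, 5.28 and 4.15 FPKM in libraries labelled OE, against 16.48, 13.82 and 13.49 FPKM in libraries labelled NC, and was 3.17-fold lower (log2 fold change -1.66, limma adjusted p = 9.42e-05). MMP9, a gelatinase that trims the amino end of CXCL8, had 2.80, 3.18 and 3.85 FPKM in libraries labelled OE, against 5.09, 5.03 and 6.24 FPKM in libraries labelled NC, and fell (log2 fold change -0.72, limma adjusted p = 0.00988). DPP4, a peptidase that clips several chemokines, had 41.22, 41.55 and 43.07 FPKM in libraries labelled OE, against 72.63, 67.28 and 63.52 FPKM in libraries labelled NC, and fell (log2 fold change -0.69, limma adjusted p = 2.98e-04). MMP2 had 1.08, 0.81 and 1.06 FPKM in libraries labelled OE, against 1.81, 1.75 and 1.80 FPKM in libraries labelled NC. Its mean of 0.983 FPKM in libraries labelled OE was under the filter, so it was tested only through the group where it was higher. With that limit, MMP2 fell by 0.81 on the log2 scale (limma adjusted p = 0.0197). It lost its call without OE library 2 or NC library 1 or 2 (limma adjusted p 0.0567 to 0.0701). MMP14, named after its values were seen, fell by 0.36 (limma adjusted p = 0.00794), and was at -0.16 (limma adjusted p = 0.183) with the shift of neighbouring genes removed. Without the filter neither MMP9 (limma adjusted p = 0.0729) nor MMP14 (0.0627) passed, and with a pseudocount of 1 MMP2 was at -0.49. The proteoglycan genes SDC1, SDC4 and GPC1 and the protease gene CTSL did not pass.

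**Figure D5:**
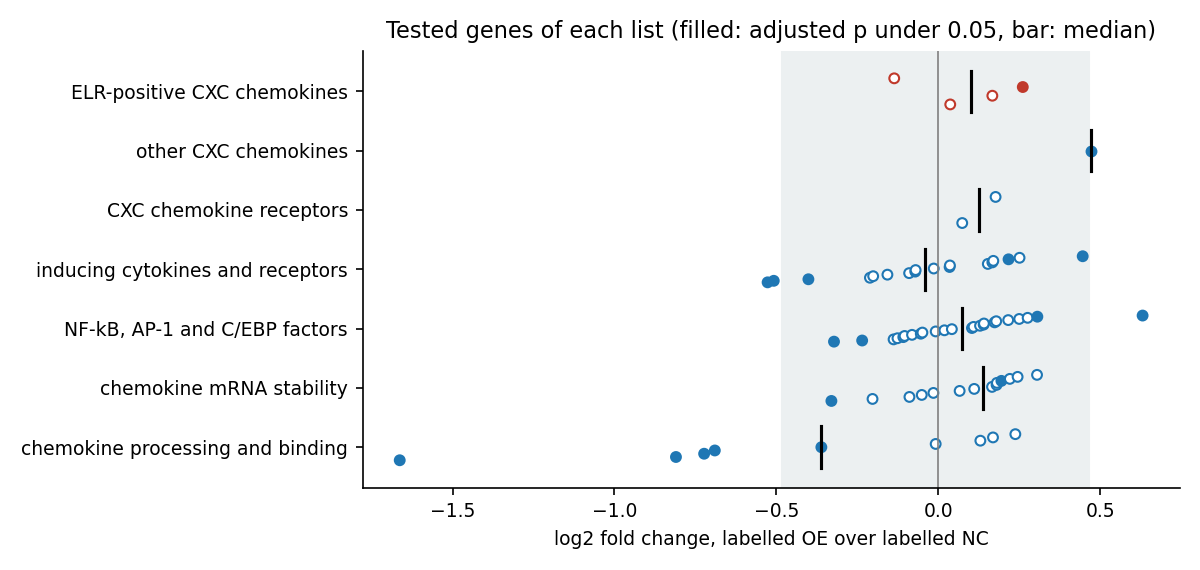
Log2 fold change, labelled OE over labelled NC (horizontal axis), of every tested gene in each list (rows), with the chemokine genes in red. Filled points passed an adjusted p of 0.05, vertical bars are medians, and the grey band is the 5th to 95th percentile of all tested genes (-0.48 to 0.46). The median of the list for processing and binding is -0.36, and those of the other lists with over 2 tested genes lie between -0.04 and 0.14.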

How the data were processed

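The authors trimmed reads with FASTX-Toolkit 0.0.13, aligned them to GRCh38 with HISAT2 and computed the deposited FPKM values from uniquely mapped fragments of stranded, poly(A)-selected, paired-end libraries. The study describes a batch correction, and whether it touched these values is not given in the sources used here. The annotation and counting tool are not given either. No counts were used here, so the count test of the authors was replaced by limma 3.58.1 (lmFit, eBayes with trend, R 4.3.3) on log2(FPKM + 0.1), two-sided. Of the 20442 symbols, 20366 (99.6%) matched RefSeq. Ratios were tested in Python 3.11.15 by exact permutation.

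Depth was sought in whole-fragment steps of low values. At the best of many depths tried, a whole fragment lay within 0.15 of 47.4% to 56.1% of values. By chance this holds for 30.0% at a single fixed depth, and the search for the best depth raises that share by an amount that was not measured. Depth was not recovered this way. The study lists read totals by medium, group and replicate, and no label gives the medium of these libraries. Data were simulated for libraries labelled OE against NC (12461 genes). On the log2 scale, limma recovered 15 of 100 genes changed by 0.25, 73 of 100 changed by 0.5 and 94 of 100 changed by 1. There were 13 false calls among 12161 genes. The changed genes were a smaller share than the 24.4% that passed in the data. The adjusted threshold was therefore stricter in the simulation, and its recovery does not carry over to the data.

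The chemokine genes and lists were chosen with earlier results of these data known. Named genes were the 6 chemokines, HNRNPF and IL6, up to 4 genes per list and 4 neighbours with the largest change past the threshold, the nearest tested neighbour on each side, CXCR1, CXCR2 and ZFP36, and the 3 genes nearest in profile, not all of which are reported here. Alternatives were pseudocounts of 1 and 0.01, no filter or a filter at 5 FPKM, scaling by TPM, quantiles or median of ratios, limma with robust estimation or without trend, a replicate block, removal of the neighbouring shift and leaving out each library. A correction for GC content, length and expression was chosen after seeing the data.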

Additional observations from a re-analysis of the deposited data

How the results depend on the processing

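Depth is unknown, so counting error is not given. Changes near that of CXCL5 were mostly missed in simulated data, but under a stricter adjusted threshold, so this recovery does not carry over to the data. CXCL5 kept its direction under all 18 alternatives, HNRNPF also its call. Without the filter on low genes CXCL5 stood at 0.26 (adjusted p = 0.065), 0 of the chemokine genes passed and 1293 of all genes passed. Quantile scaling called 2 chemokine genes, with CXCL3 at 0.21 (adjusted p = 0.033) and CXCL8 at 0. The 0 for CXCL8 was set by the method, which gives equal ranks equal values. CXCL8 ranked 9, 10 and 10 in libraries labelled OE and also in those labelled NC, so this value says nothing about its change. Removal of the GC, length and expression trend, chosen after seeing the data, called 3 chemokine genes, with CXCL5 at 0.42 (adjusted p = 3.33e-04), CXCL2 at 0.18 (adjusted p = 0.0487), CXCL3 at 0.34 (adjusted p = 0.0131) and CXCL8 turned to 0.0006 (adjusted p = 0.996). Removal of the neighbouring shift turned CXCL2 to -0.054. The other named genes and list counts were each compared with the main setting under each alternative fitted for them. In 618 of these comparisons a gene did not change sign or cross the threshold, or a count stayed within 1.5 times. In 105 a gene fell short of the threshold, in 70 a count moved further, and in none did a sign turn. The causes were not tested. All adjusted p are from limma.

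As each library was left out, CXCL2 ran from 0.0048 to 0.07, CXCL3 from 0.13 to 0.20, CXCL5 from 0.22 to 0.32, CXCL8 from -0.19 to -0.09 and HNRNPF from -0.82 to -0.76 on the log2 scale. Between 0 and 2 chemokine genes passed, and between 1247 (without NC library 2) and 4254 (without NC library 3) of all genes. The count was 2196 without OE library 1, 1826 without OE library 2, 1696 without OE library 3 and 1835 without NC library 1. The ratios to CXCL8 ran from 0.13 to 0.22 for CXCL2, 0.26 to 0.39 for CXCL3 and 0.37 to 0.42 for CXCL5. An arm left with 2 libraries was fitted with the spread pooled over both groups.

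Libraries of the same number did not deviate together (correlations of 0.091, -0.086 and 0.006), and they were treated as unpaired. With the replicate block 3115 genes passed, and CXCL5 stood at an adjusted p of 0.0211, CXCL3 at 0.103, CXCL8 at 0.36 and CXCL2 at 0.779 (limma).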
